A study of Homo sapiens with 13 samples.

Results

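Long intergenic RNA genes (lincRNAs) were examined in 13 monoclonal lines of 293T, a human embryonic kidney cell line. The members were the rows of the deposited count table that GENCODE release 29 types as lincRNA and whose mean level over the 13 clones was at least 1 CPM (counts divided by the library's total and scaled to a fixed sum), leaving out the small nucleolar RNA hosts with SNHG symbols, GAS5 and ZFAS1. This gave 295 genes of the 56238 rows. The table held 6522 lincRNA rows, of which 4326 had at least 1 count and 297 reached the level; SNHG15 and SNHG8 were the 2 left out. Since the rule used the mean level over all clones, the levels below are a description. The genotype of a clone played no part in it.

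LincRNAs are transcripts from between protein-coding genes that have no long open reading frame and are mostly capped, spliced and polyadenylated like messenger RNAs. Some build nuclear structures, as NEAT1 does for paraspeckles, some act on chromatin in cis, as XIST does in silencing an X chromosome, and some bind proteins in the cytoplasm, as NORAD does with the Pumilio proteins. Others are known mainly as the precursors of microRNAs or as divergent transcripts that start beside a protein-coding gene on the other strand.

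The clones came from 293T cells that received Cas9, a guide RNA and a single-stranded repair template for rs199643834, a coding variant of FLCN, and that were then selected with puromycin, sorted as single cells and expanded. They were grouped by the genotype labels, which list 3 copies. The 4 WT clones had the reference base on all 3 copies, the 7 HET clones had the alternative base on 1 copy, and the 2 HOM clones had it on all 3. All groups, WT included, went through the same editing procedure, so no unedited culture enters a comparison. Each library is 1 clone, so differences between clones of 1 genotype are part of the error, and nothing in the labels says whether clones of a genotype arose from separate editing events.

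Libraries held 44504068 to 54377639 counts, and all 295 members were kept by the filter on low counts that left 20320 genes for testing. Of the 6 measured genes listed for 293T, KRT18 had 36.2 to 69.8 CPM and KRT8 3.01 to 38.4, NEFM, INA and PAX2 ranged down to 0.0641, 0.128 and 0.369 CPM in single clones, and SOX11 had a median of 0 CPM. Of 9 genes given here that mark other cell types, COL1A1 reached 29.1 CPM and COL3A1 12.8, and the other 7 reached at most 1.03, with PTPRC and HBB at most 0.144. HOM 1 stood apart by its mitochondrial genes, which took 4.33% of its counts against 1.76% to 3.54% in WT and HET clones, and HET 6 had the largest share of mitochondrial ribosomal RNA among HET clones at 0.402%. The strand setting of the authors' counting is not known, so counts of members that overlap another gene on the opposite strand are uncertain. In GENCODE transcripts, 54 of the 295 members had at least 10% of their 50-base stretches on the opposite strand of another gene's transcript, and 53 shared at least 10% with another gene on the same strand.

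NORAD and HCG11 carried a shared sequence feature that the selection had not used. Pumilio proteins bind the RNA element UGUANAUA, where N is any base, and in the longest GENCODE transcript of each member the DNA letters TGTANATA were counted on the transcribed strand only. HCG11 held 16 such elements in 5696 bases and NORAD held 15 in 5339 bases, or 2.81 per kb in each. The next member, FTX, held 7 in 12267 bases. Over all members the density was 0.139 per kb and 48 of the 295 held at least 1, beside 0.132 per kb over 12442 protein-coding genes of mean CPM at least 1. No member other than these 2 held 15 or more, and 2 of the 12442 protein-coding genes did.

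The transcripts of NORAD, encoded on chromosome 20, and HCG11, encoded on chromosome 6, aligned over nearly their whole length, with 93.8% identical bases among 5249 aligned. At 12 of the 15 NORAD elements, HCG11 also held an element that starts at the aligned base. The stretches below, from GENCODE 29 transcripts, show 3 such elements and 1 at which the aligned bases of HCG11 are no element. Capitals mark the 8 bases of the element or the bases aligned with it, and the number is the element's order along NORAD.
NORAD element 1: aaggcctgTGTATATAatatgaaa
HCG11 at element 1: aaggcctgTGTATATAatatgaaa
NORAD element 6: taccacttTGTAAATAtctttttg
HCG11 at element 6: taccaattTGTAAATAtctttttg
NORAD element 14: tgctactgTGTATATAatggaaaa
HCG11 at element 14: tactactgTGTATATAatggaaaa
NORAD element 2: cactactgTGTATATAgttgacaa
HCG11 at element 2: cactactaTGTATGTAgttgacaa
A match to these letters is a description and not a measured binding site.

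**Figure D1:**
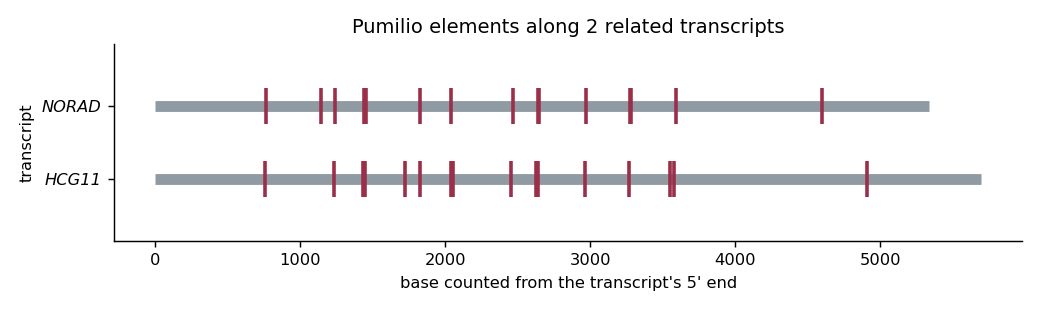
Position of each TGTANATA element (red ticks) along the longest GENCODE 29 transcript of NORAD and of HCG11 (grey bars), in bases from the 5' end. The 15 elements of NORAD and 16 of HCG11 run along 5339 and 5696 bases, and 12 of the 15 have an element of HCG11 at the aligned base.

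For the microRNA hosts, the mature microRNAs show which hosts share a target-pairing seed. The sequences are from RefSeq (GRCh38.p14), and capitals mark the seed, bases 2 to 8. Each hairpin lies inside its host on the same strand in GENCODE 29. The host's RNA was counted here, and the mature microRNA was not measured.
miR-221-3p (MIR222HG): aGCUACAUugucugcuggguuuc
miR-222-3p (MIR222HG): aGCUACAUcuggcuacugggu
let-7c-5p (MIR99AHG): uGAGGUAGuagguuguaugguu
miR-4458 (MIR4458HG): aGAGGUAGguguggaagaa
miR-210-3p (MIR210HG): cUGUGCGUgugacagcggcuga
miR-22-3p (MIR22HG): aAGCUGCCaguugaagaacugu
miR-503-5p (MIR503HG): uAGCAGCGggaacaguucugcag
miR-9-5p (LINC00461): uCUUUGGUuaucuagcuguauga
The pair from MIR222HG shares 1 seed, and the seed of let-7c-5p from MIR99AHG is that of miR-4458 from MIR4458HG.

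Most members were low in these cells. Of the 295, 120 had a mean of 1 to 2 CPM, 91 of 2 to 5, 54 of 5 to 10, 28 of 10 to 100, and 2, XIST and NORAD, exceeded 100, with a median over members of 2.33 CPM. Just inside the rule's limit lay AL359504.2 and AL138781.1 at 1.00 CPM each and AC068057.1 at 1.01, and just outside it AL121601.1 at 0.999, AC027702.1 at 0.991 and AC108062.1 at 0.987. XIST alone took 22.4% to 60.7% of the members' counts in a clone, with a median of 44.4%.

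Per kb of exon, which allows levels to be compared between genes, NORAD led with 80.9 CPM per kb, followed by XIST with 58.2. AL035446.1 at 30.4 and AC146944.4 at 27.3 came next. AC146944.4 shared 92.5% of its 50-base stretches with other genes, and 76.1% with GTF2H2, a subunit gene of transcription factor TFIIH, so its count is uncertain. NORAD shared 30.3% of its stretches with other genes, and 22.7% with OVCH1-AS1. PURPL, a lincRNA known as a p53 target, reached 9.74 CPM per kb. NEAT1, the scaffold of paraspeckles, reached 3.06, and MALAT1, a speckle-associated RNA, reached 5.59. MALAT1 and the long form of NEAT1 end without a poly(A) tail, and these libraries were made from poly(A) RNA. Both values may therefore be too low for a comparison with the other genes.

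Members were shorter and less often spliced than protein-coding genes of mean CPM at least 1. Their median exonic length was 2491 bases against 5281, and 98 of 295 (33.2%) had a single exon in the longest transcript against 3.13% of 12442 genes. The median GC content of exons was 46.3% against 47.9%. A protein-coding gene started within 1000 bases on the opposite strand for 70 members (23.7%), beside 5.64% of the 6227 lincRNA rows that were not members. Chromosome 2 held the most members, 29, and the X chromosome held 18 (6.10%, beside 3.71% of protein-coding genes).

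Promoters were looked up in RefSeq (GRCh38.p14), which had a window of 250 bases before to 50 bases after the start for 91 of the members. Windows of 3 members are printed, HCG11 and EPB41L4A-AS1 with the lowest adjusted p among members lower in HET than in WT and JPX with the lowest among those higher, with the 50 bases from the start onward in capitals.
HCG11, chr6:26521456-26521755, plus strand: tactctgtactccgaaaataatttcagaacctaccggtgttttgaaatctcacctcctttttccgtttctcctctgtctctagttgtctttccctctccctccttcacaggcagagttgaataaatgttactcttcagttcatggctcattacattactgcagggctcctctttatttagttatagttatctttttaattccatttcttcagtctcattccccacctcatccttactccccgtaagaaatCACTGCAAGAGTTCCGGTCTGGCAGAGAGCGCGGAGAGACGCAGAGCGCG
EPB41L4A-AS1, chr5:112160276-112160575, plus strand: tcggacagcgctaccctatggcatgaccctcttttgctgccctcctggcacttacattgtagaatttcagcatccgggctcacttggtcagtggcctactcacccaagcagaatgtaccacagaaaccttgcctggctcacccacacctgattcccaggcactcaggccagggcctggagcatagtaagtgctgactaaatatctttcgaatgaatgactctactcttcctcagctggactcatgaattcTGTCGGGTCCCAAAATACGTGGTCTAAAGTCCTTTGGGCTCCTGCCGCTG
JPX, chrX:73944074-73944373, plus strand: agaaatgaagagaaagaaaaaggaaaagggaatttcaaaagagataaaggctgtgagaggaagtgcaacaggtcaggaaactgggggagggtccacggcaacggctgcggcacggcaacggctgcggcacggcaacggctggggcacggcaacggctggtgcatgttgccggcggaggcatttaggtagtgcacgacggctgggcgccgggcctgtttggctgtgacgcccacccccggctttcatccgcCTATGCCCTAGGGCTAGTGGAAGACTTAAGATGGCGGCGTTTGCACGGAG
Their GC contents were 44.3%, 52.3% and 59.7%, against a median of 61% over the 91 windows and 58.3% over 27305 genes. All windows were searched for 6 motifs on both strands, and none of the 6 was in these 3 windows. The letters of the CCAAT box were the most frequent, in 41.8% of the 91 windows and 35.7% of all 27305. The E-box CACGTG was in 7.69% of the 91 and 7.43% of all windows. Its longer form in lysosomal gene promoters, TCACGTGA, which always contains it, was in 0% and 1.04%. The TATA box, read as TATAAA, was in 12.1% and 11.95%. The binding motif of AP-1, read as TGACTCA, was in 5.49% and 4.92%. The cyclic AMP element, read as TGACGTCA, was in 2.20% and 1.98%.

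The comparison of HET with WT clones asks how lincRNA levels differ with the edit on 1 of 3 copies. A single member, HCG11, was lower past the threshold, an adjusted p of 0.05 by edgeR's quasi-likelihood test with Benjamini-Hochberg adjustment over all 20320 genes. That is 1 of 295 members, beside 0.0837% of all genes called lower and 0.128% called in either direction. No member was higher past it, beside 0.0443% of all genes. At an unadjusted p under 0.05, 19 members were higher and 34 were lower (6.44% and 11.5% of members), beside 9.73% and 8.73% of all genes. DESeq2 called 2 members higher and 8 lower (0.678% and 2.71% of members), beside 2.64% and 2.53% of the genes it tested. Limma voom called 26 higher and 36 lower (8.81% and 12.2%), beside 10.6% and 10.1% of all genes.

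HCG11 is a non-coding gene of the extended histocompatibility region on chromosome 6 and the NORAD-like member described above. It stood at 48.8, 57.7, 57.0 and 51.7 CPM in WT 1 to WT 4. In the 7 HET clones it ranged from 24.1 to 34.8 CPM with a median of 30.5. All 7 HET clones lay below all 4 WT clones. The log2 fold change was -0.81, with an SE of 0.12 (edgeR adjusted p = 0.0453). The adjusted p ran from 0.00553 to 0.229 when 1 library was left out, and passed the threshold only without WT 1 (0.00759) or without HET 6 (0.00553), while the log2 fold change stayed between -0.86 and -0.76.

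Both HOM clones of HCG11, at 33.8 and 30.7 CPM, also lay below all WT clones, with a log2 fold change of -0.74 (SE 0.18) that did not pass in edgeR (adjusted p = 0.188). They lay within the range of the HET clones. The 2 comparisons share the WT clones. HMGN4, a nucleosome-binding protein gene and the nearest protein-coding gene to HCG11, had log2 fold changes of -0.30 in HET and -0.55 in HOM.

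Since HCG11 resembles NORAD, the counts of both are given side by side. NORAD had 490, 481, 458 and 429 CPM in the WT clones, 359 to 492 CPM in the HET clones with a median of 411, and 437 and 391 CPM in the HOM clones. The groups overlapped, and the log2 fold changes of -0.15 (edgeR adjusted p = 0.483) and -0.17 (0.623) did not pass. HCG11 amounted to 9.96% to 12.5% of the NORAD level in WT clones, 6.00% to 8.91% in HET clones, and 7.74% and 7.85% in HOM clones, so WT clones lay above all others in this ratio, and both HOM clones lay within the HET range. Of the 5647 stretches of 50 bases in HCG11, 228 (4.04%) also occur in NORAD. How reads that align to both were counted is not known, so part of the HCG11 count could belong to NORAD, and this was not tested.

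**Figure D2:**
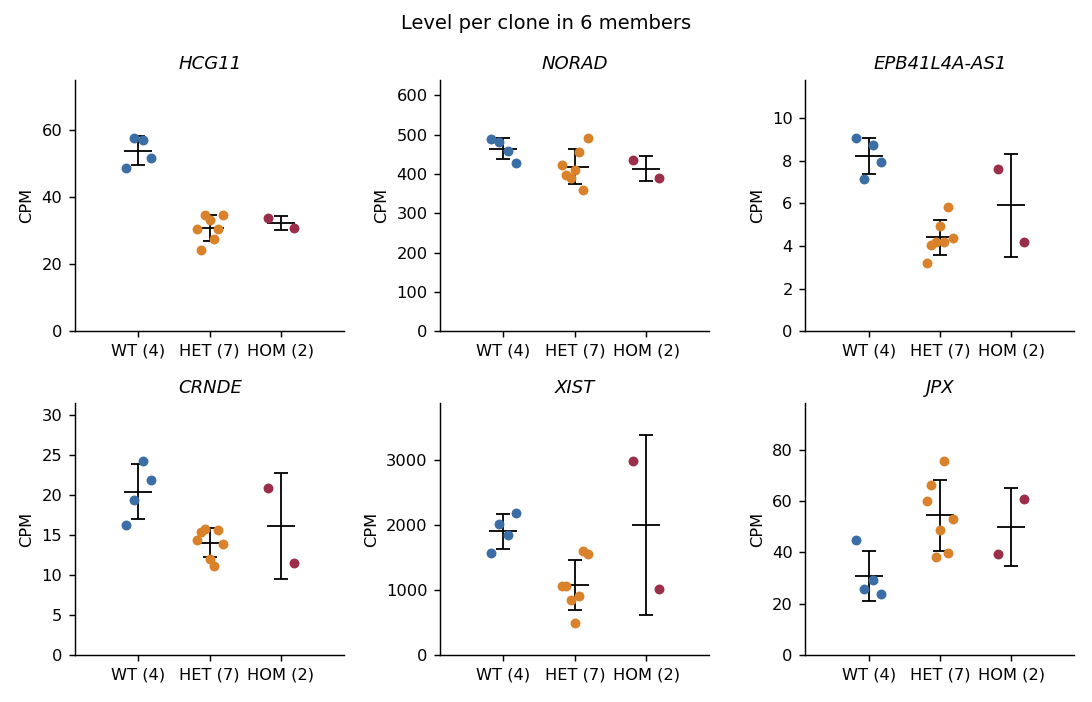
CPM (vertical axes, each from 0) of 6 members by genotype, with a point per clone, and the mean and SD as a bar with whiskers. All HET and HOM clones lie below all WT clones for HCG11 (WT 48.8 to 57.7 CPM), whereas NORAD overlaps between the genotypes and HOM 1 and HOM 2 lie far apart for XIST and CRNDE.

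The remaining members with separated groups were few. Between HET and WT, 8 members (2.71%) had no overlap, 1 higher and 7 lower, beside 2.61% of all genes (1.23% higher and 1.38% lower), so the share is near the background. AP006621.3 was the one that was higher. Those lower were HCG11, EPB41L4A-AS1, CRNDE, PAXIP1-AS1, LOH12CR2, AL021368.2 and SEPT7-AS1. These names include some chosen after their values were seen. Without HET 6, 3 members lay higher and 21 lower with no overlap, beside 3.59% and 4.27% of all genes. Without WT 1, 20 lay higher and 21 lower, beside 5.9% and 5.76%.

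EPB41L4A-AS1 is transcribed from the opposite strand of EPB41L4A, which encodes a FERM-domain protein. It had 9.09, 7.15, 8.73 and 7.94 CPM in WT clones and 3.22 to 5.86 CPM in HET clones with a median of 4.20. The log2 fold change was -0.90, with an SE of 0.21 (edgeR adjusted p = 0.0724). HOM 1, at 7.64 CPM, lay among the WT clones, and HOM 2, at 4.21, among the HET clones. Its longest transcript has 55.1% of its stretches on the opposite strand of EPB41L4A, which had 8.29 ± 2.79 CPM in WT (SD, n = 4) and 6.94 ± 2.68 in HET (SD, n = 7).

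CRNDE, a lincRNA next to the homeobox gene IRX5 that is known for high levels in tumours, had 16.3, 19.3, 24.2 and 21.9 CPM in WT clones. HET clones had 11.1 to 15.8 CPM with a median of 14.4. The log2 fold change was -0.54, with an SE of 0.18 (edgeR adjusted p = 0.136), and that of IRX5 was -0.65. HOM 1 (20.8 CPM) and HOM 2 (11.5 CPM) lay on either side of the gap between the groups. PAXIP1-AS1, divergent from the DNA damage response gene PAXIP1, had 10.2 to 14.1 CPM in WT and 4.59 to 9.42 in HET (log2 fold change -0.68, adjusted p = 0.121), beside -0.23 for PAXIP1.

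JPX, an activator of XIST in the X inactivation centre, had the lowest adjusted p among members with a higher level in HET. It had 44.8, 25.6, 29.1 and 23.6 CPM in WT clones and 38.2 to 75.4 CPM in HET clones with a median of 52.8. HOM clones had 39.2 and 60.7 CPM. Only WT 1 overlapped the HET range, and the log2 fold change was 0.82, with an SE of 0.23 (edgeR adjusted p = 0.101). It passed without WT 1 (1.05, adjusted p = 0.0178) and without HET 6 (0.87, adjusted p = 0.0324). FTX, which is annotated over 94.8% of the stretches of the longest JPX transcript on the other strand, had 1.11 to 3.91 CPM in WT and 1.96 to 3.32 in HET.

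XIST, the RNA that coats and silences an X chromosome, was singled out after its values were seen. It had 1565, 2019, 1841 and 2181 CPM in WT clones. HET clones had 498 to 1598 CPM with a median of 1059, and HOM 1 had 2978 and HOM 2 1019. HET 6 was the one HET clone above the lowest WT clone. The log2 fold change in HET was -0.82, with an SE of 0.30 (edgeR adjusted p = 0.167). In HOM it was 0.07, a value between 2 clones on opposite sides of the WT range, and it was -0.89 without HOM 1 and 0.64 without HOM 2. TSIX, the antisense partner of XIST, had 22.0 CPM in HOM 1 and 2.62 to 7.43 elsewhere, and amounted to 0.285% to 0.739% of the XIST level, the highest in HOM 1. XIST covers 20.01% of the stretches of TSIX on the other strand, so reads of the 2 cannot be told apart without the strand setting. JPX and XIST went in opposite directions in HET, and neither passed the test in edgeR.

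The share of all counts that went to the members was lower in HET than in WT clones, and XIST made most of the gap. The share was 0.350% to 0.432% in WT clones and 0.214% to 0.384% in HET clones, the highest being HET 6 and the others at most 0.317%. It was 0.484% in HOM 1 and 0.275% in HOM 2. The ratio of the mean HET share to the mean WT share was 0.704. Without XIST, WT clones had 0.193% to 0.198%, HET clones 0.144% to 0.206%, HOM clones 0.190% and 0.174%, and the ratio was 0.887. Beside this, the protein-coding share was 96.6% to 96.8% in WT and 96.6% to 97.4% in HET, with HET 6 the lowest. Mitochondrial ribosomal RNA had 0.330% to 0.411% in WT clones, 0.114% to 0.298% in the HET clones other than HET 6, 0.524% in HOM 1 and 0.181% in HOM 2. The part of RNA quality or library makeup in these shares was not tested, and fewer cells with a transcript cannot be told apart from less of it per cell.

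**Figure D3:**
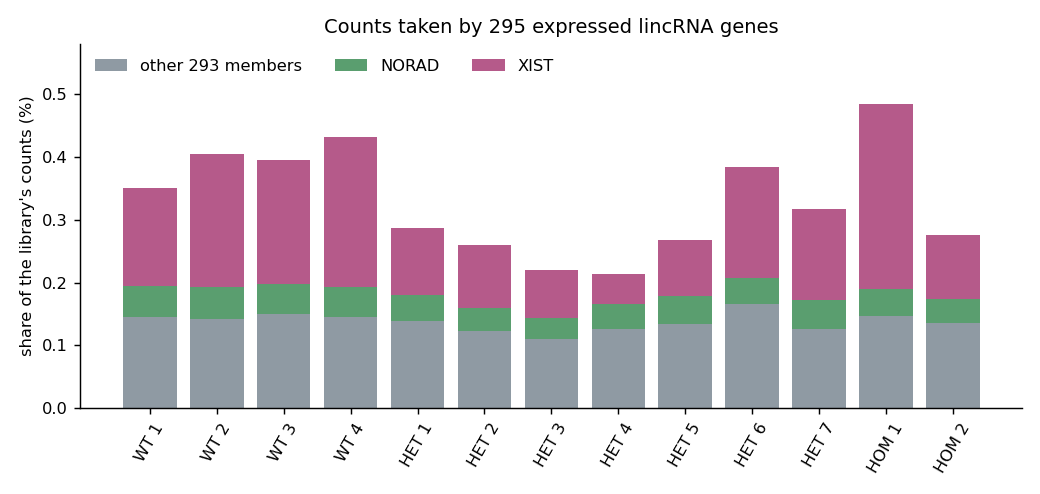
Share of each library's counts (%, vertical axis) taken by the 295 members in the 13 clones, split into XIST, NORAD and the other 293. HOM 1 has the largest total at 0.484% and HET 4 the smallest at 0.214%, and XIST varies more than the rest.

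Gene by gene, the members' median lay close to that of all genes. The median log2 fold change of the members was -0.05, beside 0.01 over all genes tested, and 160 of 295 (54.2%) were below 0, beside 49.2% of all genes. Single-exon members had a median of -0.12 and members with 2 or more exons -0.03. Members with a divergent partner had -0.02 and the others -0.08. Over the 69 pairs with values for both, 36 members had the sign of their divergent protein-coding partner, and the member's level was a median of 0.0846 times that of the partner in CPM. The pairs share libraries, and Pearson's r of 0.27 across them is a description.

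HET 6 and WT 1 carried weight in these counts. HET 6 was the highest clone for 49 of the 293 members under 100 CPM (16.7%), beside 9.58% of 10003 protein-coding genes. Without HET 6 edgeR called 14 members lower and 2 higher in HET against WT, among them EPB41L4A-AS1 and PURPL, beside 4.2% and 3.53% of all genes. Without WT 1 it called 7 lower and 8 higher, beside 3.12% and 4.02% of all genes.

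The comparison of HOM with WT clones asks the same for the edit on all 3 copies, with only 2 HOM clones. No member passed the threshold in edgeR, and neither did any other gene (0%). At an unadjusted p under 0.05, 13 members were higher and 13 lower, beside 7.52% and 6.84% of all genes. DESeq2 called 1 higher and 3 lower, beside 0.681% and 1.09% of the genes it tested, and limma voom 7 higher and 4 lower, beside 2.22% and 1.1% of all genes. Groups did not overlap for 53 members (18%), 27 higher and 26 lower, beside 25.6% of all genes (12.8% in each direction). The median log2 fold change was 0.03, beside -0.01 over all genes, and 142 of 295 members (48.1%) were below 0, beside 51.0%.

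Members with the lowest p that were lower in HOM clones included SEPT7-AS1, OSER1-DT and AC136475.7. SEPT7-AS1, divergent from the septin gene SEPT7, had 1.51 to 1.85 CPM in WT, 0.676 to 1.49 in HET, and 0.542 and 0.513 in HOM. All 3 groups were separate, in the order WT, HET, HOM, and the log2 fold change in HOM was -1.65 (SE 0.41, edgeR adjusted p = 0.188), beside 0.12 for SEPT7. OSER1-DT, divergent from the oxidative stress gene OSER1, had 6.58 to 9.95 CPM in WT and 4.11 and 3.45 CPM in HOM, and HET clones had 3.81 to 8.76 CPM with HET 6 the highest. The log2 fold change in HOM was -1.09 with an SE of 0.33 (edgeR adjusted p = 0.224), beside -0.32 for OSER1.

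AC136475.7, next to the interferon-induced gene IFITM3, had 1.00 to 2.72 CPM in WT and 0.520 and 0.739 CPM in HOM, with a log2 fold change of -1.54 (edgeR adjusted p = 0.235). AC136475.5, also beside IFITM3, had -1.35, whereas IFITM3 itself had 0.29. AC136475.5 has 30.6% of its stretches on the opposite strand of IFITM3.

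Members with the lowest p that were higher in HOM clones were LINC01355, AC108488.1, AC078846.1 and AC125807.2. LINC01355 had 0.512 to 0.933 CPM in WT, 0.747 to 2.53 in HET, and 1.76 and 1.81 in HOM, with log2 fold changes of 1.24 in HET (edgeR adjusted p = 0.106) and 1.40 in HOM (0.242). AC078846.1, divergent from NRF1, the nuclear respiratory factor gene, had 1.49 to 4.46 CPM in WT and 6.39 and 5.50 CPM in HOM, with a log2 fold change of 1.23 (edgeR adjusted p = 0.214), beside -0.12 for NRF1. AC125807.2 had 5.22 to 9.31 CPM in WT and 16.5 and 13.3 CPM in HOM, with 1.18 (edgeR adjusted p = 0.219). In each of these, both HOM clones lay above all WT clones, and WT 1 was the highest WT clone of AC078846.1 and AC125807.2.

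The comparison of HOM with HET clones asks what further edited copies change. No member was called in either direction by edgeR, DESeq2 or limma voom, and edgeR called 0% of all genes. DESeq2 called 0.0632% of the genes it tested higher and 0.00702% lower, and limma voom 0% and 0.00492%. At an unadjusted p under 0.05, 7 members were higher and 2 lower, beside 1.91% and 0.891% of all genes and 2.8% in either direction. Groups did not overlap for 7 members (2.37%), 4 higher and 3 lower, beside 2.49% of all genes (1.22% higher and 1.27% lower). The median log2 fold change was 0.05, beside -0.03 over all genes, and 133 members (45.1%) were below 0, beside 54.9%. The folds at its upper end rested on HOM 1. TSIX had a log2 fold change of 1.39, AC015813.1 of 1.09 and XIST of 0.90, and without HOM 1 these were -0.36, -0.16 and -0.06. AC015813.1, which lies near VEZF1, had 57.3 CPM in HOM 1, 15.1 in HOM 2 and 9.31 to 26.6 elsewhere.

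The nuclear architecture members did not separate by genotype. NEAT1 had 54.5 to 97.0 CPM in WT, 52.9 to 115 in HET, and 65.5 and 77.6 in HOM, with HET 6 the highest and log2 fold changes of -0.03 in HET and 0.03 in HOM. MALAT1 had 31.4 to 50.3 CPM in WT, 31.4 to 63.3 in HET, and 82.8 and 43.3 in HOM, with HOM 1 the highest and 0.11 in HET and 0.50 in HOM. Without HOM 1 the fold change of MALAT1 in HOM was -0.03, and without HOM 2 it was 0.89. MALAT1 and the long form of NEAT1 end without a poly(A) tail, so libraries made from poly(A) RNA hold less of them.

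Genes whose proteins act with lincRNAs were listed with earlier results known, and none of them was called in any of the 3 comparisons by edgeR. Paraspeckle proteins had a median log2 fold change of 0.36 in HET (13 of 15 above 0) and 0.51 in HOM (12 of 15). NONO, a core paraspeckle protein, had 665 ± 190 CPM in WT (SD, n = 4) and 956 ± 141 in HET (SD, n = 7), with 0.52 (edgeR adjusted p = 0.133). The 7 nuclear speckle proteins had 0.28 in HET and 0.47 in HOM, all above 0. The 22 genes of the nuclear exosome, which degrades many lincRNAs, and of its adaptors had 0.13 and 0.29, with 18 above 0 in each. The 7 microRNA processing genes had 0.29 (6 above 0) and 0.37 (7 above 0).

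No microRNA host passed the test in edgeR in any of the 3 comparisons. MIR222HG, the host of miR-221 and miR-222, had 6.68 to 8.73 CPM in WT, 4.67 to 16.2 in HET, and 17.98 and 10.6 in HOM, and both HOM clones lay above all WT clones (log2 fold change 0.94, SE 0.42, edgeR adjusted p = 0.324, and 0.52 without HOM 1). MIR210HG, the host of the hypoxia-induced miR-210, had 4.40 to 7.15 CPM in WT, 0.796 to 8.93 in HET, and 0.994 and 2.24 in HOM, and both HOM clones lay below all WT clones (-1.73, SE 0.74, edgeR adjusted p = 0.313, and -1.25 without HOM 1). In HET clones both hosts spread beyond the WT range on both sides.

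The 2 hosts whose microRNAs share the let-7 seed had no separation by genotype. MIR99AHG had 2.10 to 4.57 CPM in WT, 1.04 to 3.60 in HET, and 1.99 and 2.34 in HOM. MIR4458HG had 2.93 to 6.16 CPM in WT, 3.26 to 5.85 in HET, and 4.65 and 3.53 in HOM. MIR22HG had 1.75 to 3.43 CPM in WT and 1.28 to 5.70 in HET, and MIR503HG had 2.95 to 9.81 and 1.57 to 5.28. In these 4 hosts the WT and HET ranges overlapped.

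LINC00461, which holds a miR-9 gene, had 2.25 to 3.40 CPM in WT, 1.15 to 1.96 in the HET clones other than HET 6, 3.44 in HET 6, and 1.72 and 1.75 in HOM. The log2 fold changes were -0.62 in HET (edgeR adjusted p = 0.244) and -0.74 in HOM (0.401), and that in HET passed without HET 6 (-0.86, adjusted p = 0.0326). MIR4435-2HG and CYTOR share sequence, so their counts are uncertain. In CYTOR, 45.5% of the stretches of MIR4435-2HG were found, and 19.1% of those of CYTOR were found in MIR4435-2HG. CYTOR had 0.502 to 2.82 CPM in WT and 1.21 to 5.16 in HET (log2 fold change 1.05, edgeR adjusted p = 0.218), and MIR4435-2HG had 1.64 to 3.49 and 2.54 to 8.88 (0.51, adjusted p = 0.446).

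Among the p53-linked members, PURPL had 39.4, 31.2, 28.6 and 30.6 CPM in WT clones. HET clones other than HET 6 had 9.33 to 23.4 CPM, HET 6 had 46.0, and HOM clones had 21.1 and 22.7. Except for HET 6, all HET and HOM clones lay below all WT clones. The log2 fold changes were -0.50 in HET (edgeR adjusted p = 0.371) and -0.57 in HOM (0.534), and without HET 6 that in HET was -0.78 and passed (adjusted p = 0.0414). TP53TG1 had 3.94 to 6.33 CPM in WT, 2.38 to 6.84 in HET, and 2.44 and 4.46 in HOM.

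The spread among clones of 1 genotype was compared with that of protein-coding genes in the same range of level. In WT clones the median coefficient of variation of members fell from 30.6% at 1 to 2 CPM to 24.3% at 10 to 100 CPM, while that of protein-coding genes went from 33.1% to 16.2%. In HET clones it was 33.8% and 23.7% against 47.1% and 18.1%. At 2 to 5 CPM the medians were 27.7% for members and 28.0% for protein-coding genes in WT, and 33.4% and 37.2% in HET. At 5 to 10 CPM they were 24.9% and 22.3% in WT, and 26.9% and 25.8% in HET. The median of members was thus the lower one under 5 CPM and the higher one above it. Within 10 to 100 CPM, levels of the 27 members and 7127 protein-coding genes were not matched, so the part of level in that gap was not tested. NORAD had the smallest range over clones of all members, with its highest clone 1.37 times its lowest. AP002360.1, MUC20-OT1 and LINC00839 had the lowest variation among WT clones, for example 9.56 to 10.4 CPM for MUC20-OT1.

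At the other end, OLMALINC, which lies beside the lipid desaturase gene SCD, had 41.7 CPM in WT 1 and 4.61 to 11.0 in the other WT clones, and FOXD2-AS1 had 2.97 CPM in WT 1 and 10.2 to 19.8 in the others. LINC00665 had 1.79 CPM in WT 1 and 5.77 to 11.96 in the others. WT 1 was the clone that stood apart in all 3, and each was named for its high variation in WT.

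**Figure D4:**
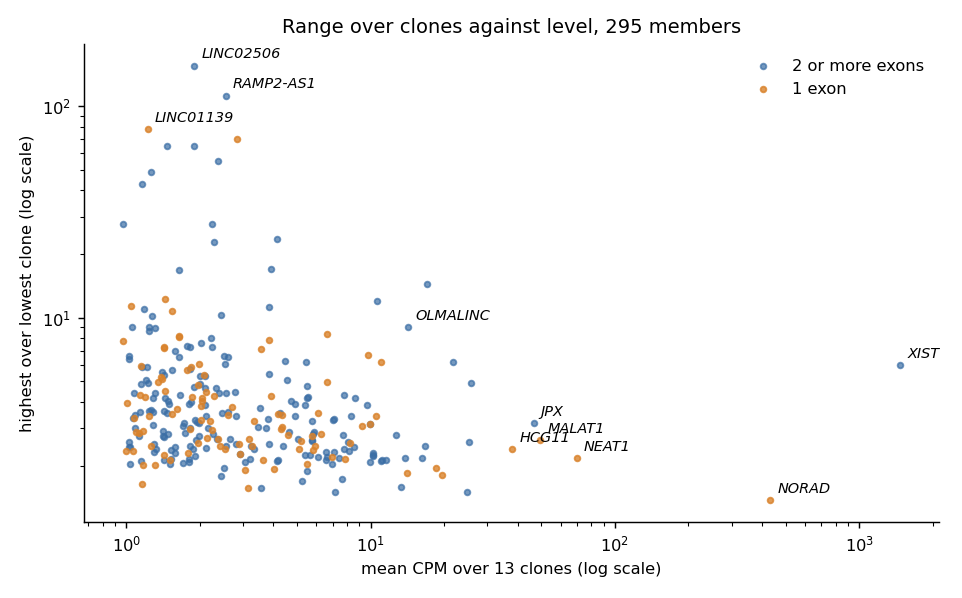
Highest over lowest clone (vertical, log scale) against mean CPM over 13 clones (horizontal, log scale) for the 295 members, coloured by exon number. For the 9 members under 0.1 CPM in a clone, clones under 3 counts were set to 3 counts. NORAD lies lowest at 1.37.

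A few members were nearly absent from some clones and plain in others, regardless of genotype. Of the 210 members with a mean of 1 to 5 CPM, 21 (10.0%) had a highest clone at least 10 times the lowest, with clones under 3 counts set to 3, beside 20.02% of 1753 protein-coding genes in that range. Between 5 and 100 CPM it was 2 of 80 (2.50%) beside 1.99% of 8250. Under 0.1 CPM in at least 1 clone were 9 members, or 4.23% of the 213 with a mean under 5 CPM, beside 6.16% of the 1753 protein-coding genes of 1 to 5 CPM. The 9 were named after their values were seen.

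LINC02506, on chromosome 4 nearest to the protocadherin gene PCDH7, had 9.97 CPM (495 counts) in HET 4, 6.85 in HET 1 and 5.44 in WT 1, against at most 0.714 in the other 10 clones and 2 counts in HET 2. RAMP2-AS1, next to the receptor-modifying protein gene RAMP2, had 6.53 CPM in HOM 2 and 0 counts in HET 7, and was under 0.1 CPM in 3 clones, WT 1, HET 4 and HET 7. LINC00847 had 0 counts in HET 4, HET 7 and HOM 1 and 2.50 CPM in HET 5. LNCTAM34A, the antisense transcript of the miR-34a host, had 4.07 CPM in WT 4 and 0 counts in WT 1, HET 7 and HOM 1. KC6 had 0 counts in HET 5 alone and 1.10 to 3.57 CPM elsewhere. LINC01806 had 2 counts in WT 4 alone and 1.53 to 3.74 CPM elsewhere. For each of these, clones of 1 genotype included both some under 0.1 CPM and some over 1 CPM, and the copy number of the loci was not tested.

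**Figure D5:**
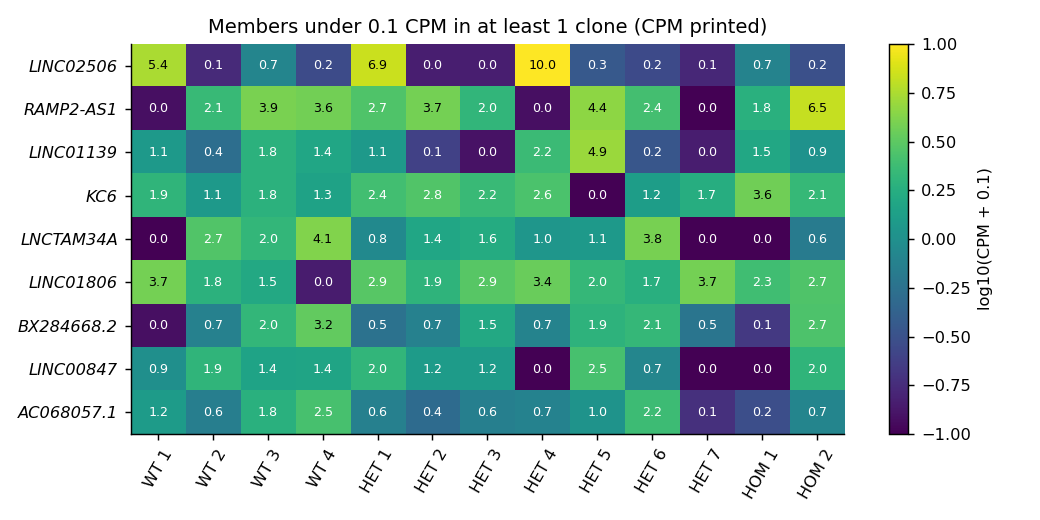
CPM (printed in each cell and coloured as log10 of CPM plus 0.1) of the 9 members under 0.1 CPM in at least 1 of the 13 clones. Dark cells occur in WT, HET and HOM columns, for example WT 1, HET 7 and HOM 1 for LNCTAM34A.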

How the data were processed

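RNA was measured in 13 libraries prepared with a stranded kit for poly(A) RNA, per the labels' protocols. The deposited values are raw counts per gene that the authors made with Trimmomatic 0.36, STAR and featureCounts 1.5.3 on genome build hg19, per the submitters' processing notes. Not given in the sources used here are the annotation, the version of STAR, and how strand and multiple alignments were handled in counting. Gene types, lengths, transcripts and gene order came from GENCODE release 29, which describes another build and matched 51204 of the 56238 rows. No GENCODE coordinates are printed.

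Genes were kept by filterByExpr (20320). All 13 libraries entered 1 quasi-likelihood fit in edgeR 4.0.16 (R 4.3.3) with TMM factors and robust estimation, with 2-sided contrasts between the genotypes and Benjamini-Hochberg adjustment over all genes at 0.05. CPM uses TMM-scaled library sizes, except for shares of counts and for the rule that chose the members. Clones are the replicates, and p-values set the difference between genotypes against the spread between clones of 1 genotype. The 2 most alike libraries (WT 3, WT 4) had a chi-square per gene of 34.4 over genes with at least 130 counts, so none was counted as a duplicate.

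Members and gene lists were chosen with earlier results of these data known. Named were a fixed list of well-known lincRNAs and microRNA hosts, the 10 members highest per kb of exon, members of lowest p in each comparison, and the 3 most and least variable in WT with a mean of at least 5 CPM. Genes that another rule here names after their values were seen are marked as such. Clone-style identifiers were otherwise counted without names. The search for Pumilio elements, the alignment of NORAD with HCG11 (match 2, mismatch -3) and the count of shared 50-base stretches were chosen after seeing the data. The fit was tested on simulated data. Alternatives were DESeq2 1.42.0, limma 3.58.1 (voom with sample weights), RLE factors, total counts, other filters, 1 surrogate variable from sva 3.50.0, and leaving out libraries. Some genes of these lists are not reported here.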

Additional observations from a re-analysis of the deposited data

Results flagged for a closer look

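A clone far from the others of its genotype was found in 8 of the 88 sets of WT or HET values examined, by the ratio of the gap to the range. Chance flags about 1 set in 20. The sets share clones and are not independent, so that rate cannot judge how often 1 clone recurs. XIST and TSIX were left out, and some members were named for high or low variation in WT, so the flags are of limited weight. In HET clones, HET 6 was the clone apart for 5 members. NEAT1 stood at 115 CPM in HET 6 against 52.9 to 77.1 in the other HET clones, and PURPL at 46.0 CPM against 9.33 to 23.4. MUC20-OT1 stood at 14.2 CPM against 7.60 to 10.0, OSER1-DT at 8.76 against 3.81 to 5.14, and LINC00461 at 3.44 against 1.15 to 1.96. HET 3 was apart for LINC00665, with 21.5 CPM against 7.83 to 13.2 in the other HET clones, and HET 4 for MIR4435-2HG, with 8.88 CPM against 2.54 to 4.53. In WT clones, AC122108.1 had 9.07 CPM in WT 1 against 4.38 to 4.96 in the others. AC122108.1 and MIR4435-2HG share sequence with other genes, so their counts are uncertain.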

How the results depend on the processing

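Between HET and WT, the count of members called higher (0 in edgeR) was 2 with DESeq2 (beside 2.64% of the genes it tested) and 26 with limma voom (10.6%), and that called lower (1) was 8 with DESeq2 (2.53%), 36 with limma voom (10.1%), and 0 with 1 surrogate variable, with only the groups compared, or without WT 2, HET 2 and HOM 1. For HOM against WT (0 and 0), DESeq2 called 1 higher and 3 lower (0.681% and 1.09% of the genes it tested), and limma voom 7 higher and 4 lower (2.22% and 1.1%). Medians moved with total counts only to -0.14 in HET and -0.068 in HOM, where the median of all genes shifted by -0.11 in HET and -0.090 in HOM. For members of mean CPM at least 2 the HOM median was 0.11. Without WT 2, HET 2 and HOM 1 the medians were -0.082 in HOM against WT and -0.053 in HOM against HET. Non-overlapping members higher in HET numbered 0 with total counts only and 5 without the 3 libraries (1.75% of all genes). Leaving out the 3 also gave 65 higher and 91 lower in HOM against WT (25.7% and 26.1% of all genes) and 19 and 18 in HOM against HET (5.37% and 6.44%), with a single HOM clone. The ratio of shares was 0.887 without XIST and 0.881 without the 5 highest members. Without the 3 libraries, the HOM against HET log2 fold changes turned to -0.16 for AC015813.1, -0.44 for TSIX and -0.078 for XIST. With 1 library left out they ran from -0.16 to 1.74, from -0.36 to 2.15 and from -0.060 to 1.46, lowest without HOM 1 and highest without HOM 2. The cause of these changes was not tested.

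Leaving out each library in turn gave the following ranges. In HET against WT, 0 to 8 members were called higher, 0 to 14 lower, 1 to 20 were higher without overlap, 7 to 21 lower without overlap, 149 to 177 were below 0, and the median ran from -0.13 to -0.0091. In HOM against WT, 0 to 2 were called higher and 0 to 1 lower. Both peaked without WT 1, beside 0.785% and 0.43% of all genes. Without overlap, 27 to 76 were higher and 25 to 71 lower. The 76 (25.8% of members) came without HOM 2, beside 26.4% of all genes. The 71 (24.1%) came without HOM 1, beside 22.9%. Members below 0 numbered 134 to 163, and the median ran from -0.069 to 0.064. In HOM against HET, 4 to 53 were higher and 3 to 36 lower without overlap. Both peaked without HOM 2, at 18% and 12.2% of members, beside 13.8% and 12.9% of all genes. Members below 0 numbered 124 to 150, and the median ran from -0.0061 to 0.090. The ratio of shares ran from 0.660 to 0.732, and the median coefficient of variation from 20.9% to 30.3% in WT and 26.03% to 32.6% in HET. A lone HOM clone was assumed to vary like the other groups. No paired analysis was possible because the labels give clone names and no replicate numbers. Some names start with the same number, within and across genotypes, but no source used here says what it marks, so it served neither as a batch nor as a block.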

Other observations

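Some members named by level or by p are given here as values. LINC02381 had 21.9 to 26.7 CPM in WT clones and 19.9 to 28.5 in HET clones, and a log2 fold change of 0.04 in HET. AC010969.2 had 4.52 to 7.62 CPM in WT clones, 2.55 to 4.89 in HET clones, and 4.43 and 2.69 in HOM clones, and only HET 6 overlapped the WT range (-0.80, edgeR adjusted p = 0.106). AC108488.1 had 0.635 to 1.44 CPM in WT, 1.05 to 2.27 in HET, and 2.58 and 1.60 in HOM (0.83 in HET, edgeR adjusted p = 0.163).

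LOH12CR2, divergent from BORCS5, a gene of lysosome positioning, had 1.86 to 2.64 CPM in WT clones, 0.676 to 1.75 in HET clones, and 1.27 and 0.801 in HOM clones. All HET and HOM clones lay below all WT clones, with log2 fold changes of -0.81 in HET (edgeR adjusted p = 0.143) and -1.07 in HOM (0.263), beside 0.15 and 0.07 for BORCS5. It was chosen after its values were seen. AL021368.2, which holds 5 Pumilio elements, the most after HCG11, NORAD, FTX and NEAT1, had 3.83 to 5.17 CPM in WT and 1.60 to 3.79 in HET (-0.65, edgeR adjusted p = 0.164), and was also chosen after its values were seen.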
